A study of Mus musculus with 4 samples.

Results

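Psmb8, Psmb9, Psmb10, Psme1, Psme2, Tap1, Tap2, Tapbp, B2m and Nlrc5 make up the machinery that prepares peptides for MHC class I molecules in the mouse, together with the immunoproteasome. They were found among the 47729 gene rows of a table of read counts by matching their symbols, or accepted synonyms, to Ensembl identifiers. Of these 10 genes, 9 had a row. Psmb9 could not be matched by identifier and is not analysed here. The RNA came from CD4 T cells of C57BL/6 spleens cultured under conditions that induce regulatory T cells (iTreg cells). For such cultures, the study's methods describe naïve CD4 T cells taken from both spleen and lymph nodes. Every culture was stimulated with antibodies against CD3 and CD28 and contained TGF-β, IL-2 and blocking antibodies against IL-4 and IFN-γ. The cells of the FeSO4 group were given 50 µM ferrous sulfate and those of the Mock group PBS, both over 4 days, and each group had 2 libraries. Per the study's methods, the cells were wild-type and the libraries were 2 pairs of Mock and FeSO4 samples from 2 independent experiments. Its reporting summary gives an age of 6 to 8 weeks for all mice except a knockout strain that is not used here.

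In class I presentation, proteasomes cut cytosolic proteins into peptides, and the TAP transporter moves these into the endoplasmic reticulum, where they are loaded onto a heavy chain paired with β2-microglobulin. Interferon-γ is known to replace the catalytic subunits of the constitutive proteasome by those of the immunoproteasome and to raise the activator PA28, TAP and β2-microglobulin, through IRF1 and the transactivator NLRC5. In T cells the pathway is active at rest, so that most of these genes are transcribed without added interferon.

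The stretches upstream of 4 members are shown because they hold the interferon-type elements found among the members or, for Tap1, the promoter shared with Psmb9. They are RefSeq sequences of GRCm38.p6, written 5′ to 3′ on the strand of the gene from 250 bases before its start. Psmb8 lies at chr17:34197945-34198194 (plus strand), Psme1 at chr14:55578244-55578513 (plus), B2m at chr2:122147437-122147686 (plus) and Tap1 at chr17:34187306-34187555 (plus). Capitals mark matches to an ISRE-type core (GAAANNGAAA, the GAAA repeat bound by interferon regulatory factors) or to a GAS element (TTCNNNGAA, known from interferon-γ-responsive promoters), searched on both strands.
Psmb8: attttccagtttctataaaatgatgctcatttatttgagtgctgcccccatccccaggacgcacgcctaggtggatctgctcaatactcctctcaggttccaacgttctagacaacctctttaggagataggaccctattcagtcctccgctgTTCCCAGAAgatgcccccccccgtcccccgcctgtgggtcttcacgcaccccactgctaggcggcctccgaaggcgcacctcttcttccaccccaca
Psme1: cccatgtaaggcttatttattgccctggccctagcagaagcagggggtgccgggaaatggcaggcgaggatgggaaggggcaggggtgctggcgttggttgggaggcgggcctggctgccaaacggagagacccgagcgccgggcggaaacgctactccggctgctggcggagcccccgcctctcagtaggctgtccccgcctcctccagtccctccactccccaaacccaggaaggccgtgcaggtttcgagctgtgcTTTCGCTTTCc
B2m: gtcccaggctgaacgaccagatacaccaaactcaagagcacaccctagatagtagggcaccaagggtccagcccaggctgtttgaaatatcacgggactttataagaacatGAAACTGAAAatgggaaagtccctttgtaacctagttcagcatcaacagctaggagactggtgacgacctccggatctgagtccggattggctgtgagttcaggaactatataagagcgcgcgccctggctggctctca
Tap1: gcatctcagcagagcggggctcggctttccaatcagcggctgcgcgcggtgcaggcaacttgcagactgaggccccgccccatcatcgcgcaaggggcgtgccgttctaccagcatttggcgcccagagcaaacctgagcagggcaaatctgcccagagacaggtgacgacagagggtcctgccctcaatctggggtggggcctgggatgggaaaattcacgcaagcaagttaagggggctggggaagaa

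Windows from 250 bases before to 50 bases after the start were given for 8 of the 10 members, with none for Tap2 and Nlrc5. An ISRE-type core was found in 2 of these 8 windows. In B2m the match, GAAACTGAAA, began 139 bases before the start, and in Psme1 the match lay on the opposite strand and began at base 10 of the transcript. Of 27025 mouse promoter windows, 3.49% held this core. A GAS element was found in 1 of the 8 windows. It was TTCCCAGAA in Psmb8, 97 bases before the start, and 8.47% of all windows held one. The letters CCAAT, bound by NF-Y and searched on both strands, occurred in 4 of the 8 windows (Psmb9, Tap1, Tapbp and B2m) against 37.9% of all windows. The windows of Tap1 and Psmb9 shared 275 bases, because these genes are transcribed in opposite directions from a common promoter, and their CCAAT match is the same site read from both sides. A match is only an occurrence of these letters, and binding was not measured.

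The 9 members with values were all transcribed at levels that gave many reads, between 2871 and 44970 counts per library. All of them passed the filter on low counts. Their values are given as CPM, the usual read count relative to library size, here on sizes scaled by TMM. The summed CPM of the 9 genes was 2031 (Mock replicate 1), 2047 (Mock replicate 2), 2860 (FeSO4 replicate 1) and 2792 (FeSO4 replicate 2). In each of the 9 genes both FeSO4 libraries lay above both Mock libraries, as did 30.1% of all 13732 genes tested. By edgeR's quasi-likelihood test, all 9 rose at an adjusted p under 0.05, whereas 10.9% of all genes tested were called higher and 9.17% lower. At an adjusted p under 0.01 all 9 were also called, against 5.75% of all genes. None of the 9 was lower, also with DESeq2 and limma-voom. The changes were moderate, with log2 fold changes from 0.27 to 0.60. Their median was 0.45, against -0.00052 over all genes tested. At the study's threshold, an unadjusted p under 0.05 with a log2 fold change of at least 0.5, 3 of the 9 (Psmb8, Tap1 and B2m) were called higher, against 4.67% of all genes. With library sizes alone, only Tap1 (0.54) kept a log2 fold change of at least 0.5, with Psmb8 at 0.47 and B2m at 0.45. Without FeSO4 replicate 2, Psme2 (0.55) and Psmb10 (0.52) reached 0.5 as well. The RNA was from bulk cultures, in which more cells of a kind and more RNA per cell cannot be told apart.

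**Figure D1:**
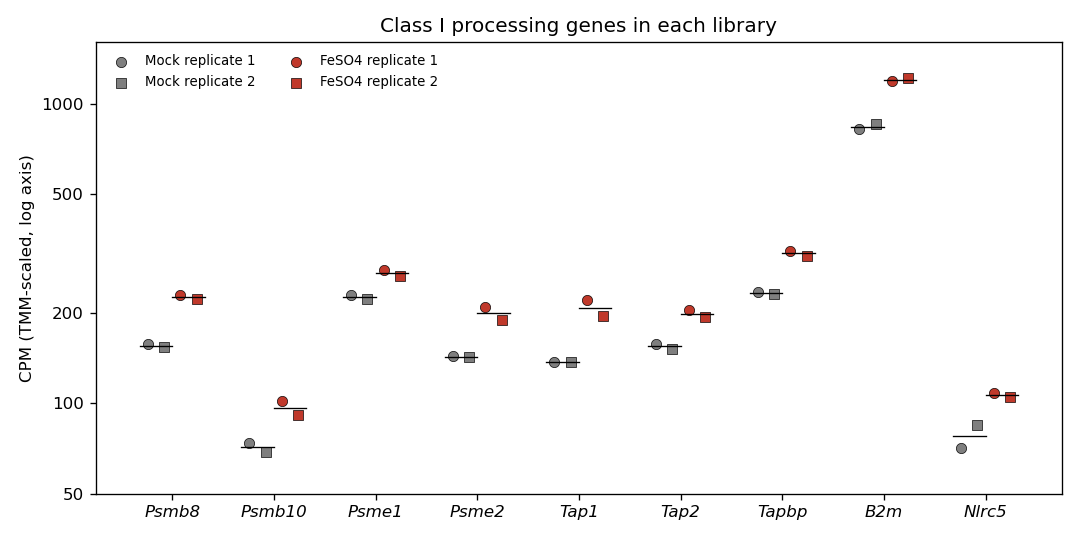
CPM (log axis) of the 9 class I processing genes in each of the 4 libraries, with circles for replicate 1, squares for replicate 2 and short lines for the group mean. For every gene both FeSO4 libraries (red) lie above both Mock libraries (gray), from Psmb10 and Nlrc5 at about the lowest levels to B2m at the highest.

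Psmb8 and Psmb10 encode catalytic β subunits of the immunoproteasome, LMP7 and MECL-1. Psmb8 was at 158 and 154 CPM in Mock and at 229 and 223 CPM in FeSO4. The replicates of each group were close and the groups were well apart. The log2 fold change was 0.54 ± 0.06 (SE, edgeR quasi-likelihood test, adjusted p = 1.63e-05). Psmb10 was at 73.9 and 68.7 CPM in Mock and at 102 and 91.4 CPM in FeSO4. It rose by 0.44 ± 0.08 on the log2 scale (SE, edgeR adjusted p = 0.000847), with replicate 1 above replicate 2 in both groups. Psmb8 (ENSMUSG00000024338) lies at chr17:34334666-34338399 (mm9, plus strand), where exons of Gm20496 on the other strand overlap its own. Psmb10 (ENSMUSG00000031897) lies at chr8:108459628-108462292 (minus strand), with no exon overlap.

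Psme1 and Psme2 encode PA28α and PA28β, which form the ring that opens the ends of the proteasome core. Psme1 was at 230 and 223 CPM in Mock and at 279 and 266 CPM in FeSO4, which was the smallest rise among the 9 genes (0.27 ± 0.06, SE, edgeR adjusted p = 0.00601). Its call was lost without FeSO4 replicate 1 (adjusted p = 0.0695) and without the filter on low counts (adjusted p = 0.0519). Psme2 was at 144 and 143 CPM in Mock and at 210 and 190 CPM in FeSO4. Its Mock libraries hardly differed, and its FeSO4 libraries differed by more (SD 0.501 and 13.9 CPM). The log2 fold change of Psme2 was 0.48 ± 0.07 (SE, edgeR adjusted p = 0.000106). Both genes lie 5911 bases apart, Psme1 (ENSMUSG00000022216) at chr14:56196960-56200366 (plus strand) and Psme2 (ENSMUSG00000079197) at chr14:56206278-56209950 (minus strand). Exons of Fam158a overlap those of Psme1. Reads of Psme2 that also align to a processed copy elsewhere were not counted and can lower its level.

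Tap1 and Tap2 together encode the peptide transporter TAP. With all 4 libraries, Tap1 had the largest fold change of the 9 genes. It was at 137.1 CPM in both Mock libraries and at 221 and 196 CPM in FeSO4, so that the spread between FeSO4 replicates (SD 17.3 CPM) was far above that in Mock (SD 0.046 CPM). The log2 fold change was 0.60 ± 0.07 (SE, edgeR adjusted p = 1.4e-05), and it ranged from 0.52 to 0.69 when single libraries were left out. Without FeSO4 replicate 1, Tap1 (0.52) lay below B2m (0.54) and Psmb8 (0.53). Tap2 was at 158 and 152 CPM in Mock and at 204 and 194 CPM in FeSO4, a log2 fold change of 0.36 ± 0.07 (SE, edgeR adjusted p = 0.000956). Tap1 (ENSMUSG00000037321) lies at chr17:34324498-34334170 and Tap2 (ENSMUSG00000024339) at chr17:34340472-34353266, both on the plus strand on either side of Psmb8. The gap between Tap1 and Psmb8 is 495 bases and that between Psmb8 and Tap2 is 2072 bases. Exons of Psmb9 overlap those of Tap1, and exons of Gm15821 and Gm20496 overlap those of Tap2. The strand setting of the counting is not given in the sources used here, so reads from overlapping genes may have been lost or shared.

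Tapbp encodes tapasin, which holds empty class I molecules at the transporter. It was at 235 and 232 CPM in Mock and at 322 and 311 CPM in FeSO4. It rose by 0.44 ± 0.06 (log2, SE, edgeR adjusted p = 9.84e-05), with little spread within either group. Tapbp (ENSMUSG00000024308) lies at chr17:34052844-34066235 (plus strand), and its exons overlap those of Zbtb22. B2m encodes β2-microglobulin, the light chain that all class I molecules share. Its level was 823 and 853 CPM in the Mock libraries, against 1185 and 1215 CPM in FeSO4. B2m had the smallest SE of the 9 (log2 fold change 0.52 ± 0.06, edgeR adjusted p = 1.04e-05). It was the only one of the 9 with FeSO4 replicate 2 above replicate 1. B2m (ENSMUSG00000060802) lies at chr2:121973422-121978819 (plus strand), with no exon overlap.

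Nlrc5 encodes the transactivator of class I genes, a relative of the class II transactivator CIITA. It was at 71.2 and 84.8 CPM in Mock and at 108 and 105 CPM in FeSO4. The Mock libraries differed by more than those of FeSO4, but the groups did not overlap. The log2 fold change was 0.45 ± 0.08 (SE, edgeR adjusted p = 0.000986), and it ranged from 0.32 without Mock replicate 1 to 0.59 without Mock replicate 2. Without the filter on low counts the call was lost (adjusted p = 0.06). Nlrc5 (ENSMUSG00000074151) lies at chr8:96996663-97051172 (plus strand).

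Per kilobase of exon, the 9 genes covered a wide range of levels, in the same order in both groups. RPKM, here CPM divided by the exon length of the mm9 annotation in kilobases, was highest for B2m, at 975 ± 25.0 in Mock and 1395 ± 24.4 in FeSO4 (SD, n = 2 each). Of 12773 tested genes with an exon length, B2m was the 41st by level in Mock and the 30th in FeSO4. Psme1 followed at 103 ± 2.49 and 124 ± 4.17 RPKM, and then Psme2 at 81.2 ± 0.284 and 113 ± 7.87 RPKM (SD, n = 2 each). Tapbp was at 70.9 ± 0.651 and 95.9 ± 2.26, Psmb8 at 56.9 ± 1.09 and 82.7 ± 1.51, and Psmb10 at 56.1 ± 2.90 and 76.0 ± 5.73 RPKM. Psmb8 and Psmb10 were the only neighbors in this order whose libraries overlapped, which they did in Mock and not in FeSO4. Tap2 was at 41.0 ± 1.19 and 52.6 ± 1.91 and Tap1 at 25.0 ± 0.00837 and 38.1 ± 3.16 RPKM. Nlrc5 was the lowest, at 10.7 ± 1.31 and 14.6 ± 0.297 RPKM, a level above that of 60.2% of tested genes in Mock and 67.4% in FeSO4.

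Genes of the constitutive proteasome also rose in part. Its list held the 14 α and β subunits of the 20S core, and 10 of the 14 rose by edgeR's test. The median log2 fold change of the list was 0.22, against 0.45 for the 9 class I processing genes tested. This difference was not tested, and the 2 ranges overlapped, with Psma4 and Psma1 above Tap2 (0.36) and Psme1 (0.27). Psma4 (0.43 ± 0.07, adjusted p = 0.000223), Psma1 (0.38 ± 0.07, adjusted p = 0.00081) and Psma3 (0.32 ± 0.07, adjusted p = 0.00287), all α subunits of the outer rings, had the smallest p. Of the 3 catalytic subunits whose places the immunosubunits take, 1 passed the test. Psmb6 was at 152 and 134 CPM in Mock and at 176 and 158 CPM in FeSO4 (0.23 ± 0.08, adjusted p = 0.0435), and it lost its call without Mock replicate 2, without FeSO4 replicate 1, with upper-quartile scaling, with library sizes alone and without the filter (adjusted p from 0.0653 to 0.344). Its log2 fold change was 0.14 without Mock replicate 2 and 0.31 without Mock replicate 1. Psmb5 was at 105 and 93.7 against 119 and 111 CPM (0.21 ± 0.07, adjusted p = 0.0563), and it was called under 4 of 14 alternatives. Its log2 fold change was 0.14 without Mock replicate 2 and 0.29 without Mock replicate 1. Psmb7 was at 116 and 113 against 132 and 122 CPM (0.15 ± 0.07, adjusted p = 0.135), and it was called under 0 of 14 alternatives, with an unadjusted p of 0.0409. The count of 10 fell to 3 without FeSO4 replicate 1, to 4 without Mock replicate 2 or with library sizes alone, and to 3 without the filter. It was 8 to 11 under the other alternatives without a replicate block, and all 14 genes had an unadjusted p under 0.05.

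Ratios of counts within a library do not depend on scaling. The counts were not divided by exon length, so a ratio above 1 does not mean more transcripts. Per kilobase of exon, Psmb8 lay below Psmb5 in both groups. The means were 56.9 against 108 RPKM in Mock and 82.7 against 125 RPKM in FeSO4. The ratio of Psmb8 to Psmb5, the immunosubunit over the constitutive subunit it replaces, was 1.505 and 1.64 in Mock and 1.93 and 2.01 in FeSO4. The difference of the mean log2 ratios was 0.33, with a pooled SD of 0.068 (exact two-sided permutation test, p = 0.333, the smallest that 2 against 2 libraries allow). The ratio of Psmb10 to Psmb7 was 0.639 and 0.608 in Mock and 0.771 and 0.747 in FeSO4. Here the difference of the log2 ratios was 0.28, with a pooled SD of 0.043 (exact permutation test, p = 0.333). Against the summed counts of all 14 constitutive genes the difference was 0.29 for Psmb8 and 0.19 for Psmb10. For Psmb9 and Psmb6 no ratio could be formed.

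**Figure D2:**
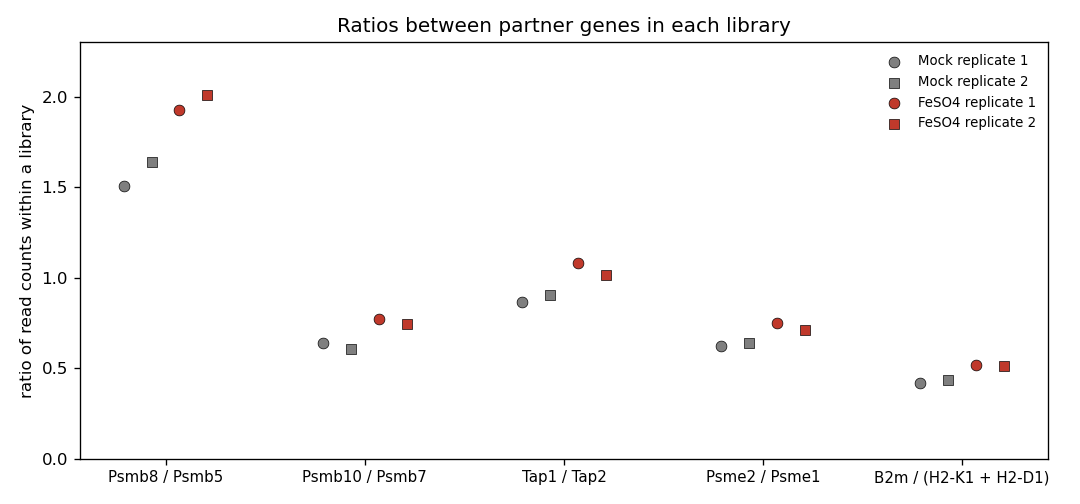
Ratio of read counts, not divided by exon length, between partner genes within each of the 4 libraries (linear axis from 0). Circles are replicate 1 and squares are replicate 2. In all 5 pairs both FeSO4 libraries (red) lie above both Mock libraries (gray), with the ratio of Psmb8 to Psmb5 going from 1.505 and 1.64 to 1.93 and 2.01.

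Ratios between partners of a complex were also formed. They were chosen after the values of the genes had been seen and are given without a test. Tap1 reads per Tap2 read were 0.867 and 0.903 in Mock and 1.08 and 1.01 in FeSO4. Psme2 reads per Psme1 read were 0.623 and 0.641 in Mock and 0.750 and 0.713 in FeSO4. B2m reads per read of H2-K1 and H2-D1 together were 0.421 and 0.436 in Mock and 0.519 and 0.513 in FeSO4. In each case the Mock and FeSO4 libraries did not overlap.

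Among class I heavy chains, 4 of the 10 tested genes rose (H2-K1, H2-D1, H2-Q4 and H2-T23), with a median log2 fold change of 0.22 over the 10. The classical heavy chains were the most abundant. H2-K1 was at 817 and 819 CPM in Mock and at 967 and 992 CPM in FeSO4 (0.26 ± 0.06, edgeR adjusted p = 0.00433). H2-D1 was at 1138 and 1139 CPM in Mock and at 1319 and 1377 CPM in FeSO4 (0.24 ± 0.06, adjusted p = 0.00687), a call that was lost without FeSO4 replicate 2 (adjusted p = 0.0704). H2-T23, which encodes the nonclassical molecule Qa-1, was at 164 CPM in both Mock libraries and at 212 CPM in both FeSO4 libraries (0.37 ± 0.06, adjusted p = 0.000592). Heavy chain genes are close copies of each other, so reads that fit more than one of them were not counted, and their values are uncertain. The count was 2 without FeSO4 replicate 2.

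Of 11 partners that trim peptides or help to load them, 5 rose and the median log2 fold change was 0.24. Pdia3 (ERp57), which is part of the loading complex, went from 503 and 511 CPM to 659 and 654 CPM (0.37 ± 0.06, edgeR adjusted p = 0.000263). The chaperones calnexin (Canx, 0.29 ± 0.06, adjusted p = 0.00227) and calreticulin (Calr, 0.24 ± 0.06, adjusted p = 0.00737) rose as well, Calr not without FeSO4 replicate 1 (adjusted p = 0.0568). These 3 genes also serve the folding of other glycoproteins. The count was 2 without FeSO4 replicate 1 and 3 without the filter on low counts. Of 8 other activators and assembly factors of the proteasome, 3 rose. They were the assembly chaperones Pomp (0.32 ± 0.07, adjusted p = 0.00369), Psmg4 (0.39 ± 0.10, adjusted p = 0.0133) and Psmg1 (0.32 ± 0.10, adjusted p = 0.0313). Psmg1 lost its call without each of 3 libraries (Mock replicate 2 and both FeSO4 replicates), with library sizes alone and without the filter. This count was 0 without FeSO4 replicate 1 and without the filter, and 1 without Mock replicate 2.

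**Figure D3:**
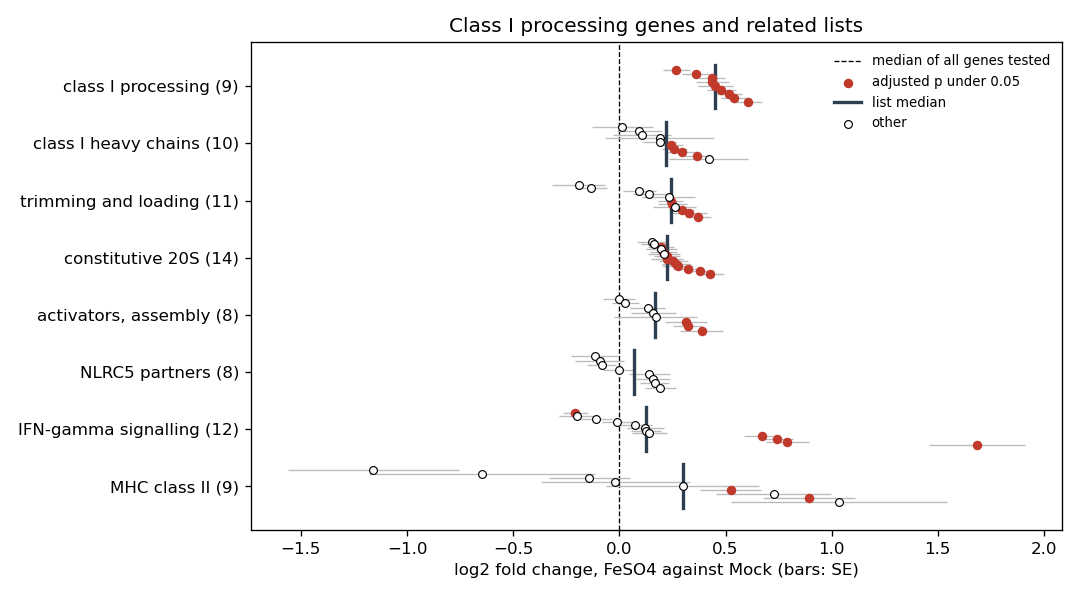
Log2 fold change in FeSO4 against Mock (bars, SE) of every tested gene of 8 lists, with the number of genes in brackets. Filled points passed the test at an adjusted p under 0.05, thick lines are list medians and the dashed line is the median of all genes tested. All 9 class I processing genes are filled, with a median of 0.45, against medians of 0.07 to 0.30 in the other lists.

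The factors that act with NLRC5 on class I promoters are the RFX and NF-Y subunits and CREB family factors. None of the 8 passed edgeR's test without a replicate block, where 2 had an unadjusted p under 0.05, and none passed with DESeq2 or limma-voom. The smallest p were those of Creb1 (0.19 ± 0.07, adjusted p = 0.073), Atf1 (0.17 ± 0.07, adjusted p = 0.099) and Nfyb (0.16 ± 0.08, adjusted p = 0.175), and the median was 0.07.

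Of 12 genes of interferon-γ signaling, 4 rose and 1 fell, and values are given for 3 of those that rose. Ifng, the cytokine gene, was at a low level with the groups apart, at 2.61 and 3.32 CPM in Mock and at 11.2 and 8.08 CPM in FeSO4 (log2 fold change 1.69 ± 0.23, edgeR adjusted p = 6.56e-05). Irf1, a transcription factor induced by interferon, was at 62.6 and 62.0 CPM in Mock and at 107 and 91.5 CPM in FeSO4 (0.67 ± 0.08, adjusted p = 2.56e-05). Irf8, a factor of the same family, was at 62.3 and 63.6 CPM in Mock and at 125 and 93.6 CPM in FeSO4 (0.79 ± 0.10, adjusted p = 4.5e-05). These 3 genes were called in all of the 14 alternatives run. Jak1, a kinase of the receptor, fell from 573 and 602 CPM to 507 and 511 CPM (-0.21 ± 0.06, adjusted p = 0.0205), and lost its call without Mock replicate 2, without either FeSO4 replicate and without the filter on low counts (adjusted p from 0.0852 to 0.136). Protein levels and secreted interferon-γ were not measured in these files.

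The genes next to the members in the genome were compared as well, a choice made after the members' values had been seen. On either side of each member, the nearest tested gene that was no member was taken from the mm9 annotation, which gave 14 genes between 0 (overlapping) and 81666 bases away. None of these 14 was called higher by edgeR, and none was higher with an unadjusted p under 0.05 or called higher by DESeq2 or limma-voom. The share over all genes was 10.9%, and a difference from it was not tested. Fam158a, Dcaf11 and Sord were called lower, with log2 fold changes of -0.40, -0.23 and -0.33 (edgeR adjusted p = 0.0465, 0.041 and 0.037). H2-DMb2 (1.03, edgeR adjusted p = 0.173) and Gm20496 (0.68, adjusted p = 0.567) had positive log2 fold changes above those of all members, without a call. The others of the 14 had negative ones, and the median log2 fold change of the 14 genes was -0.17. Fam158a, whose exons overlap those of Psme1, fell while Psme1 rose.

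**Figure D4:**
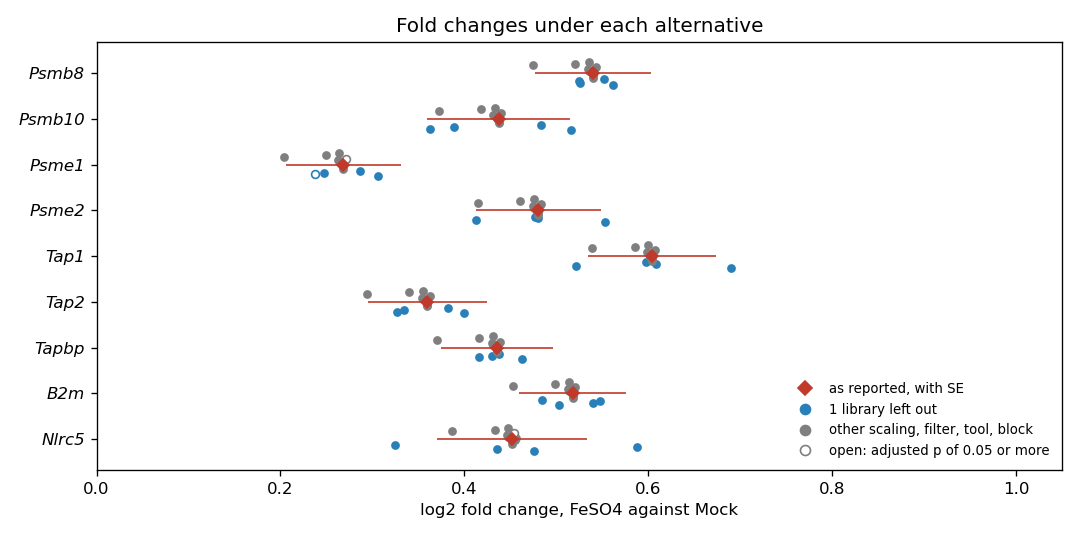
Log2 fold change of each class I processing gene as reported (red diamonds, bars are SE), with 1 library left out (blue) and under the other scalings, filters, tools and the replicate block (gray). Open points have an adjusted p of 0.05 or more, and they occur for Psme1, at 0.24 and 0.27, and for Nlrc5, at 0.45.

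Gene rows held 35183187 to 40859178 reads per library. The markers of the labeled cells were present in all libraries, with Foxp3 between 376 and 693 CPM, and Cd4 between 606 and 683 CPM. Other markers moved with the groups. Foxp3 fell by 0.59 on the log2 scale (edgeR adjusted p = 0.000223), while Cd3d, Cd3g and Trac rose (0.38, 0.50 and 0.19). The other 4 of the 8 T and Treg markers did not pass the test, and among them Il2ra was at 0.02 (adjusted p = 0.847) and Ctla4 at 0.17 (adjusted p = 0.226) on the log2 scale. The globin gene Hba-a1 went from 22.1 ± 3.46 to 35.0 ± 3.54 CPM (SD, n = 2 each). The summed level of 6 myeloid and dendritic markers was 4.63 and 0.861 CPM in the Mock libraries, against 0.379 and 0.810 CPM in FeSO4, and 164 of the 188 reads in Mock replicate 1 were of Lyz2. Of 5 B-cell markers the sum was 2.53 to 3.38 CPM in Mock and 2.38 to 2.60 CPM in FeSO4. The sum of Cd8a and Cd8b1 was 9.04 to 9.81 CPM in Mock and 9.95 to 11.02 CPM in FeSO4. Ncr1 and Klrb1c of NK cells had 0 reads in every library, which allows up to 0.0717 to 0.0876 CPM. Without Mock replicate 1, all 9 class I processing genes were called higher. The part of the other markers in the results was not tested.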

How the data were processed

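RNA of 4 libraries was measured, 2 per group, with groups taken from the labels. The authors deposited 1 table of raw counts of reads, by Ensembl gene and library, without normalization. The study's methods name build mm9, STAR and DESeq, while the submitters' processing notes list mm10, Trim Galore 0.6.7, STAR 2.7.9a and featureCounts. The 5 rows of unassigned reads carry names used by HTSeq, so the counter is uncertain. These rows stayed out of all tests. They held 4.36 to 6.03% (no feature), 3.78 to 3.91% (ambiguous), 0.802 to 0.988% (low quality), 1.8 to 2.31% (not aligned) and 4.27 to 4.62% (more than 1 alignment) of a library. Gene positions and exon lengths are from GENCODE M1 (mm9), for orientation.

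Counts were analyzed with edgeR 4.0.16 in R 4.3.3: filterByExpr by group (13732 genes), TMM, quasi-likelihood F test of FeSO4 against Mock without covariates, Benjamini-Hochberg adjustment over all genes kept. The SE is the log2 fold change divided by the square root of F. The test was first run with the legacy dispersion handling, under which the members' values were seen, and then switched to that of edgeR 4 (legacy = FALSE) to match earlier processing of these data. Alternatives were DESeq2 1.42.0, limma-voom (limma 3.58.1), other scalings and filters, the legacy settings, the replicate number as a block, and each library left out. The chi-square per degree of freedom between replicates was 11.3 (Mock) and 9.02 (FeSO4), so no libraries were within sampling noise. Limits for a count of 0 (3 counts) cover counting error only. On simulated data (13732 genes), 18 of 66 genes changed by 0.3, 34 of 57 by 0.5 and 46 of 68 by 1 on the log2 scale were called, and 16 of 13258 unchanged genes. Far fewer genes were changed there than were called in the real data, so these rates may not hold for the real fit.

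Members and lists were chosen with earlier results of these data known. Named were all members, H2-K1, H2-D1, Psmb5, Psmb6, Psmb7, Ifng, Irf1 and Ciita, in each other list the up to 3 genes with the lowest p, and genes called against their list's direction. A preset gene and a marker are not reported here. H2-Q4, the other markers and the neighboring genes are named beyond this rule. H2-Q1, H2-Q2 and Hbb-bs had no single matching row and are not analysed here.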

Additional observations from a re-analysis of the deposited data

How the results depend on the processing

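Of the 9 class I processing genes, 9 were called higher under 12 of 14 alternatives of scaling, filter, tool, block and left-out library. The exceptions were 7 without the filter on low counts (Psme1 and Nlrc5 lost) and 8 without FeSO4 replicate 1 (Psme1 lost). All 9 passed an adjusted p under 0.01, and 3 passed the study's threshold. Its log2 limit of 0.5 was crossed both ways. With library sizes alone Psmb8 (0.47) and B2m (0.45) fell below it. B2m also did so with upper-quartile scaling (0.499) and without Mock replicate 1 (0.48). Psme2 (0.55) and Psmb10 (0.52) reached it without FeSO4 replicate 2, and Nlrc5 (0.59) without Mock replicate 2. The median log2 fold change of the 9 genes was 0.39 with library sizes alone and 0.42 to 0.50 with single libraries left out. The legacy dispersion handling, with and without robust estimation, both chosen after seeing the data, left 9 of 9 called and a median of 0.45. Over all genes the filter mattered most, since without it 524 genes were higher and 304 lower, against 1491 and 1259. The other lists held 28 higher and 1 lower calls. The higher calls were 13 without the filter, 7 at the study's threshold and 15 to 28 with single libraries left out (17 without Mock replicate 2, 15 without FeSO4 replicate 1). The lower calls were 2 with DESeq2 size factors, 3 with library sizes alone, 0 without the filter, 2 with at least 10 counts in every library, 2 with the replicate block, 2 with the legacy robust fit and 0 to 2 with single libraries left out. The causes of these shifts were not tested. The log2 ratio difference of Psmb10 moved from 0.28 to 0.19 with the 14 constitutive genes as denominator. Single libraries left out gave 0.27 to 0.39 for Psmb8 and 0.25 to 0.32 for Psmb10. The planned ratio of Psmb9 to Psmb6 was not run. Ciita changed sign, from -0.02 to 0.25 without Mock replicate 2 and 0.13 without FeSO4 replicate 1 (range -0.25 to 0.25 over the left-out libraries). The replicate numbers were not shown to pair the libraries. The deviations of same-numbered libraries had a correlation of 0.029 over 13732 genes, and although the methods describe 2 pairs from 2 experiments, nothing says that a number marks an experiment. The replicate block raised the calls over all genes to 1847 higher and 1580 lower, left all 9 class I processing genes called (median 0.46) and gave 34 higher calls in the other lists, with Creb1 (adjusted p = 0.0343) and Psmb5 (adjusted p = 0.0154) among them, and 13 of 14 constitutive 20S genes against 10. An SD of 2 libraries reflects only their difference, and fits with 1 library in a group assume that it varies like the others.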

Other observations

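MHC class II genes, which present peptides from outside the cell, were at low levels, and they did not move one way. Of 9 tested genes, 2 rose by edgeR's test. H2-DMa, an editor of class II peptides, was at 7.76 and 5.21 CPM in Mock and at 9.25 and 14.7 CPM in FeSO4 (log2 fold change 0.89 ± 0.22, SE, edgeR adjusted p = 0.00806). Cd74, the invariant chain, was at 16.2 and 12.3 CPM in Mock and at 22.6 and 18.5 CPM in FeSO4 (0.52 ± 0.14, adjusted p = 0.0162). Neither was called without Mock replicate 2 or without the filter on low counts (adjusted p = 0.153 for H2-DMa and 0.151 for Cd74 without the filter). H2-DMa also lost its call without FeSO4 replicate 2 and Cd74 without FeSO4 replicate 1. With single libraries left out, the log2 fold change of H2-DMa ranged from 0.52 (without FeSO4 replicate 2) to 1.20 (without Mock replicate 1), and that of Cd74 from 0.34 (without Mock replicate 2) to 0.73 (without Mock replicate 1). H2-Eb1, a class II chain, was at 2.09 and 1.55 CPM in Mock and at 0.671 and 0.946 CPM in FeSO4 (-1.16 ± 0.40, adjusted p = 0.0518), and it was called lower under 5 of 14 alternatives, with adjusted p from 0.0297 to 0.309 over them. Ciita, the class II counterpart of Nlrc5, was at 1.38 and 1.94 CPM in Mock and at 1.46 and 1.81 CPM in FeSO4, and its libraries overlapped between the groups (-0.02 ± 0.35, adjusted p = 0.981). The sum of the 10 class II genes was 43.7 and 32.9 CPM in the Mock libraries, against 48.0 and 54.1 CPM in FeSO4.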
